A study of Mus musculus with 37 samples.

Results

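The heat shock protein and chaperone families were measured here in mouse embryos rebuilt by nuclear transfer (NT), in their controls and in the donor fibroblasts. Members were the probes whose array symbol starts with Hspa, Hspb, Hspd, Hspe, Hsph, Hsp90, Dnaja, Dnajb or Dnajc, or with Cct or Bag and a digit, or is Tcp1, Ahsa1 or Stip1, with a detection p under 0.05 on 2 or more arrays of the same version. On the first array version 58 of 72 such probes passed this filter, for 52 of 60 genes, out of 15537 probes kept of 24613. On the second version 54 of 74 passed, for 49 of 62 genes, out of 14760 kept of 25697. Hspa1a, Hspa1b, Hspe1, Hsph1 and Hsp90ab1 were not analysed here, and Hspa8 was measured on the second version alone.

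Chaperones bind proteins that are unfolded, newly made or misfolded. Hsp70 proteins work in cycles of ATP hydrolysis that J-domain proteins (the Dnaj families) start and that Bag proteins and Hsp110 proteins end by exchanging the nucleotide. Hsp90 takes over clients from Hsp70 through the adaptor Stip1, the CCT ring folds actin and tubulin, Hspd1 forms the chaperonin of mitochondria, and small heat shock proteins hold unfolding proteins without ATP. In mouse embryos, transcripts of inducible Hsp70 are known to be among the first made when the embryonic genome is switched on around the 2-cell stage, while many transcripts stored in the egg are lost.

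The study transferred nuclei into mouse zygotes, blastomeres or oocytes and measured RNA on 37 Illumina bead arrays, with tail tip fibroblasts of agouti 129xB6 F1 mice as donors for the zygote mitosis and oocyte transfers. The donor of the blastomere transfers is not given in the sources used here. On the first array version the groups were 1 sample of NT embryos made from interphase ES cells and interphase zygotes, 1 d after transfer, and 1 sample of embryos that developed for 1 d without a genome. The same version held 2 samples of NT embryos made at anaphase and 2 of NT embryos made at prometaphase of the zygote's mitosis, at 22 to 24 h after transfer where a time is given. Their controls were 2 samples of embryos held at 1 cell by cleavage inhibition and 2 of 2-cell embryos at 22 to 24 h after the first mitosis, with 3 samples of M-phase zygotes, 3 of fibroblasts and 3 of interphase zygotes (25 h after hCG where a time is given). The second version held 1 ES NT and 1 genome-less sample, and NT embryos made in blastomeres 14 h after transfer, whose 3 arrays were counted as 2 samples. It also held 2 samples of NT embryos made in MII oocytes, 2 d after transfer, 1 parthenote at 2 d, 2 samples of 4-cell controls 14 h after release from a mitotic block and 2 of MII oocytes. RNA of 1 cleavage-inhibited sample and of 2 2-cell samples of the first version was hybridized again there. All embryos were cultured in KSOM. The labels call samples biological duplicates but do not say whether litters or donors differed. The p-values therefore cover no more than the spread of these samples. How many embryos were pooled per array is not given in the sources used here, and in pooled embryos fewer cells of a type and less RNA per cell cannot be told apart.

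Promoters are shown for 3 members on which the results turn: Hspb1, Bag3 and Stip1. Hspb1 and Bag3 were higher in anaphase and prometaphase NT embryos than in 2-cell embryos, and Stip1 was lower in anaphase NT embryos. Limits on the anaphase calls, most of all for Bag3, are given below. Sequences are RefSeq windows on GRCm38.p6, from 250 bases before to 50 bases after the gene's start, 5′ to 3′ on the gene's strand. Capitals mark the heat shock element core GAANNTTC in Hspb1 and Bag3, and CCAAT and TATAAA in Stip1.
Hspb1, chr5:135887669-135887968, plus strand: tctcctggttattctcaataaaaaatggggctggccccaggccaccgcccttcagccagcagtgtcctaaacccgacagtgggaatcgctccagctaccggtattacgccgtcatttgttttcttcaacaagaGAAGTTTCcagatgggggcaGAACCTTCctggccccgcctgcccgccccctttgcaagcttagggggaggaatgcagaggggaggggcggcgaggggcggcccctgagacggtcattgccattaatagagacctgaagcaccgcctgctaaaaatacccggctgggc
Bag3, chr7:128523333-128523632, plus strand: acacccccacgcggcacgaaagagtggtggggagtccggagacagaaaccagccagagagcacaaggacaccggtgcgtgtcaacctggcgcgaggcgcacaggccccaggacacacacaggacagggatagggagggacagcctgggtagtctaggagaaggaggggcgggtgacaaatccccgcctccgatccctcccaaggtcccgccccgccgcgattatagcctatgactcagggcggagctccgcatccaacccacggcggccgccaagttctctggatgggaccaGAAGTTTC
Stip1, chr19:7039977-7040276, minus strand: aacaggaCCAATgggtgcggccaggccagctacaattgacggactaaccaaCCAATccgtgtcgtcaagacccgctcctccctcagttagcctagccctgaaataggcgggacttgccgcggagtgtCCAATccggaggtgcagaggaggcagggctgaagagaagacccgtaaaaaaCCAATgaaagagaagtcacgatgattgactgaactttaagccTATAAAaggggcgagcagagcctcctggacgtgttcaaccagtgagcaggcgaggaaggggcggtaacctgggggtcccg
Hspb1 held GAANNTTC at -117 and -97 from its start, Bag3 at 43 after it, and Stip1 held CCAAT at -243, -199, -123 and -72 and TATAAA at -30. The motifs GAANNTTC, TTCNNGAA, the triple heat shock element in either phase, CCAAT and TATAAA were searched on both strands, and the triple element contains both shorter heat shock motifs. The table held 54 windows of 43 of the 55 member genes kept on either version. GAANNTTC was in 9 of these windows (16.7%), against 7.86% of all 32851 windows, and TTCNNGAA in 3 (5.56%), against 8.52%. A triple element was in 1 member window, of Hspd1, against 0.603% of all windows. CCAAT was in 29.6% of member windows, against 37.4% of all, and TATAAA in 3.70%, against 13.6%. The Stip1 window held neither GAANNTTC nor TTCNNGAA. The same was true of Dnajb1, higher in prometaphase NT embryos, and of Hspa2, higher in anaphase NT embryos. These matches describe letters in the window, and their part in the levels was not tested.

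Levels below are normalized log2 intensities of a probe, so they are compared between samples and never between probes. Differences are log2 differences of group means ± standard error from limma's moderated test, and a probe passed at an adjusted p below 0.05 over all kept probes. Where a probe was not detected on any array of the dimmer group, the fold is given as a bound from the lowest detected signal. Where groups are said not to overlap, this only describes levels of probes that passed. The share of all probes without overlap is not given here. The share of all probes detected per array ran from 18.8 to 45.7% (first version) and from 33.8 to 44.0% (second). Genome-less sample 49 and ES NT sample 44 stood apart, with 18.8 and 20.8% of all probes and 25.9 and 29.3% of chaperone probes detected, against 60.3 to 81.0% of chaperone probes on the other arrays of the first version's fit. Apart from them, anaphase NT sample 15 had the lowest shares of the first version, 30.7% of all probes and 60.3% of chaperone probes. Anaphase NT sample 19 had 38.5 and 72.4%. Anaphase NT samples 15 and 19 correlated at 0.819 over the kept probes, the lowest pair of any group. Interphase zygote 1 correlated at 0.907 and 0.902 with the others of its group. The chaperone levels of all groups are shown by family in the map of group means.

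**Figure D1:**
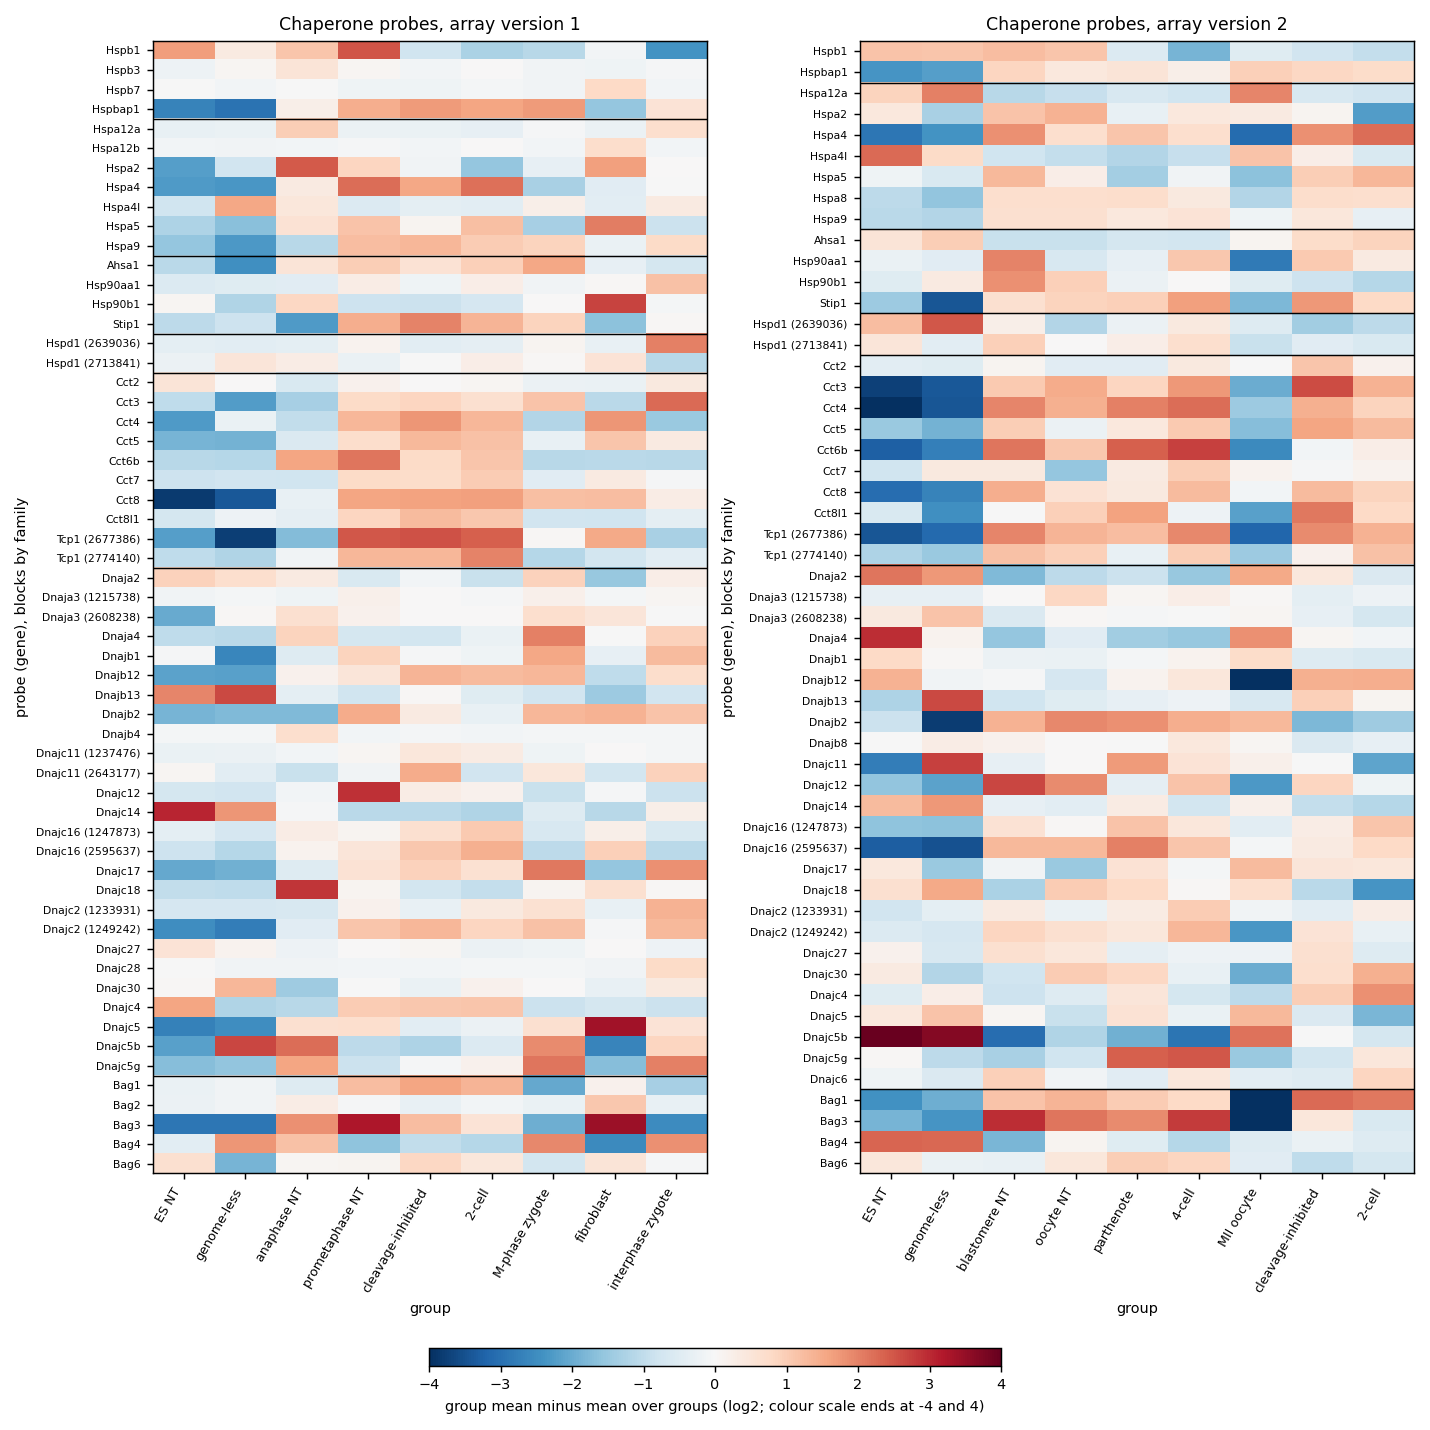
Group means of every kept chaperone probe on array version 1 (left, 58 probes) and version 2 (right, 54 probes), each minus that probe's mean over the groups shown, in log2 (colour, ending at -4 and 4), in blocks by family. CCT probes are mostly low in ES NT, genome-less and MII oocyte columns (on version 1 only 1 of 10 was detected in ES NT and 1 in genome-less embryos) and high in 2-cell and 4-cell columns, while Bag3 is highest in fibroblasts and prometaphase NT embryos on version 1 and in blastomere NT and 4-cell embryos on version 2.

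The first comparison followed the fertilized egg across its activation. In 2-cell embryos CCT subunits, Hspa4, Hspa5, Bag1 and Bag3 were higher than in M-phase zygotes, and J-domain proteins went both ways. In all, 15 chaperone probes were higher and 9 lower of 58, which is 41.4%, against 39.9% of all probes (19.3% higher and 20.6% lower), a share near the background. The median difference was 0.01, against -0.00 over all probes.

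Of the 10 CCT probes, 6 were higher and none lower in 2-cell embryos, with a median of 1.68. Tcp1, the alpha subunit, had levels of 10.74 and 10.37 in 2-cell embryos, against 8.15, 7.86 and 8.61 in M-phase zygotes on its brighter probe, with no overlap. Its difference was 2.35 ± 0.87 (adjusted p = 0.0467), which left the threshold when any sample was left out, with adjusted p between 0.0616 and 0.189. The other Tcp1 probe was at 7.58 and 7.75 in 2-cell embryos, against 4.44, 4.72 and 4.51 in M-phase zygotes, a difference of 3.11 ± 0.56 (adjusted p = 0.000479). Cct4 was higher by 2.51 ± 0.49, Cct7 by 1.47 ± 0.38, and Cct6b, a CCT gene known from testis, at least 4.03-fold. Cct3 (-0.48 ± 0.36), Cct8 (0.44 ± 0.47), Cct5 (1.49 ± 0.66) and Cct2 (0.31 ± 0.27) did not pass.

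Hspa4, an Hsp110 protein that exchanges the nucleotide of Hsp70, stood at 8.96 and 8.87 in 2-cell embryos, against 5.66, 5.17 and 5.43 in M-phase zygotes. That is a difference of 3.50 ± 0.60 (adjusted p = 0.000341), with no overlap. Hspa5, the Hsp70 of the endoplasmic reticulum, was higher by 2.54 ± 0.57 (adjusted p = 0.0027). The other Hsp70 probes, Hspa2, Hspa4l, Hspa9, Hspa12a and Hspa12b, did not pass. Hsp90 members gave no call: Hsp90aa1, the inducible cytosolic Hsp90, differed by 0.43 ± 0.58, and Hsp90b1, its relative of the endoplasmic reticulum, by -0.68 ± 0.42. Hspb1, the small heat shock protein also called Hsp25 in mouse, differed by -0.14 ± 0.52.

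Among Bag proteins, Bag1 stood at 11.86 and 11.96 in 2-cell embryos, against 8.02, 8.40 and 9.04 in M-phase zygotes (difference 3.42 ± 0.42, adjusted p = 1.91e-05). Bag3, which links Hsp70 to small heat shock proteins, was higher by 2.51 ± 0.32 (adjusted p = 2.86e-05). Bag6, which guides tail-anchored proteins, was higher by 1.16 ± 0.41 (adjusted p = 0.0379). Bag4 moved the other way, to 9.75 and 8.27 in 2-cell embryos, against 11.95, 12.25 and 12.02 in M-phase zygotes, a difference of -3.06 ± 0.34 (adjusted p = 7.7e-06).

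Of 26 J-domain probes, 8 were lower and 4 higher in 2-cell embryos, where 20.6% of all probes were lower and 19.3% higher. The falls held Dnajc5b, a relative of the synaptic vesicle protein Dnajc5, at -2.44 ± 0.61, and Dnaja4 at -2.28 ± 0.68. Dnaja2, a cytosolic partner of Hsp70, fell by 1.84 ± 0.28, and Dnajb1, the major cytosolic Hsp40 and partner of stress-induced Hsp70, by 1.73 ± 0.21 (adjusted p = 1.87e-05). Dnajb1 had levels of 10.21 and 10.42 in 2-cell embryos, against 12.06, 12.13 and 11.95 in M-phase zygotes. Both Dnajc16 probes were higher, at least 4.76-fold and at least 2.54-fold. The 2 probes of Dnajc11, a mitochondrial protein, disagreed: one was at least 1.91-fold lower and not detected in 2-cell embryos, and the other at least 1.19-fold higher and not detected in M-phase zygotes.

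On the second array version 4-cell embryos were compared with MII oocytes, in other samples. The MII oocyte arrays had the lowest shares detected on this version, 33.8 and 34.9% of all probes and 63.0 and 66.7% of chaperone probes. In 4-cell embryos 87.0 and 81.5% of chaperone probes were detected. The part of this in the differences was not tested. More chaperones were higher than lower, Bag3, Cct6b, Bag1 and Tcp1 among them, with 22 higher and 8 lower of 54 (55.6%, against 51.1% of all probes, 26.2% higher and 24.9% lower). The median was 0.86, against 0.00 over all probes. With scaling to the 75th percentile the split was 18 higher to 12 lower, where the median of all probes shifted to -0.57, and on the deposited matrix values it was 18 to 11. Of 10 CCT probes, 8 were higher and none lower, with a median of 2.58.

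Bag3 had levels of 13.42 and 13.99 in 4-cell embryos, against 5.83 and 5.22 in MII oocytes, where no array detected it. It was at least 146-fold higher (fitted difference 8.18 ± 0.37, adjusted p = 7.84e-08). Bag1 stood at 13.61 and 13.06 in 4-cell embryos, against 8.62 and 7.79 in MII oocytes, a difference of 5.13 ± 0.35. Tcp1 stood at 13.59 and 13.55 in 4-cell embryos, against 8.47 and 8.48 in MII oocytes, a difference of 5.09 ± 0.29 (adjusted p = 3.12e-07). None of these groups overlapped.

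Cct6b was at least 20.9-fold higher in 4-cell embryos than in MII oocytes, Cct3 differed by 3.73 ± 0.49, Cct4 by 3.67 ± 0.26 and Cct8 by 1.36 ± 0.30. Hsp90aa1 was at least 6.87-fold higher, and Stip1, the adaptor between Hsp70 and Hsp90, differed by 3.45 ± 0.37. Hspa8, the constitutive cytosolic Hsp70, was at 15.14 and 15.69 in 4-cell embryos, against 14.23 and 13.48 in MII oocytes (difference 1.56 ± 0.24, adjusted p = 0.000255). Hspd1 was higher by 1.58 ± 0.26 on its brighter probe, and its other probe did not pass. Dnajc2, which sits on the ribosome, was higher by 3.64 ± 0.34 on one of its probes.

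Other transcripts were lower in 4-cell embryos: Dnajc5b at least 24.4-fold, Hspa12a, an atypical Hsp70, at least 6.22-fold, and Dnaja4 at least 4.47-fold. Dnaja2 fell by 3.03 ± 0.37. Hspb1 was at 7.37 and 8.07 in 4-cell embryos, against 8.98 and 9.22 in MII oocytes (difference -1.38 ± 0.52, adjusted p = 0.0464), a call that was lost when any sample was left out.

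Over the 51 probes measured on both versions, 14 were higher in 2-cell embryos than in M-phase zygotes and 21 higher in 4-cell embryos than in MII oocytes. The 10 in both were Bag1, Bag3, Bag6, Cct4, Cct6b, Cct8l1, Hspa4, Hspa5 and both Tcp1 probes, which is 71.4% of the first set and 47.6% of the second. Over all 8215 probes kept on both versions, the probes higher in both were 69.9% of the first set and 59.9% of the second. Of 9 and 8 lower probes, 4 were shared, Dnaja2, Dnaja4, Dnajc5b and Dnajc17, which is 44.4 and 50.0%, against 59.1 and 54.8% over all probes. Dnajc5g was lower in the first comparison and higher in the second.

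Between interphase and M-phase zygotes, few chaperone probes passed. In M-phase zygotes 3 probes were higher and 1 lower than in interphase zygotes (6.90%, against 3.42% of all probes, 1.94% higher and 1.49% lower). Ahsa1, which stimulates the ATPase of Hsp90, was at 9.78, 9.72 and 9.53 in M-phase zygotes, against 7.59, 7.57 and 7.05 in interphase zygotes, a difference of 2.27 ± 0.30 (adjusted p = 0.00149). Hspbap1, a protein that binds Hspb1, was higher by 1.16 ± 0.19. The 2 Hspd1 probes went opposite ways, by 1.15 ± 0.23 and -1.90 ± 0.24. None of these 4 passed when the other groups were left out of the fit, with adjusted p between 0.076 and 0.146, and Ahsa1 differed by 2.22 within slide 4. Without interphase zygote 1, 9 probes passed.

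Embryos held at 1 cell differed from 2-cell embryos in 1 chaperone probe of 58 (1.72%, against 0.322% of all probes, 0.161% higher and 0.161% lower). That probe was Dnajc11, at least 3.92-fold higher, while its other probe did not pass. The call was lost without cleavage-inhibited sample 38, 2-cell sample 22 or 2-cell sample 23. The 10 CCT probes differed by -0.65 to 0.43.

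Donor fibroblasts differed from interphase zygotes in 32 of 58 probes (55.2%, against 57.2% of all), 14 higher and 18 lower, against 29.1% and 28.1% of all probes. Bag3 was among the higher probes, at 10.62, 10.50 and 10.62 in fibroblasts, against 5.29, 4.34 and 4.28 in interphase zygotes, where 1 of 3 arrays detected it, a difference of 5.94 ± 0.29. Hspa5 (2.90 ± 0.51), Hsp90b1 (2.79 ± 0.38) and Hspb1 (2.30 ± 0.46) were also higher. Of 26 J-domain probes, 12 were lower, 2 were higher and 12 did not pass. Bag4 fell by 4.38 ± 0.30, Dnajc5g at least 11.0-fold and Dnajc5b at least 10.2-fold.

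In NT embryos made at prometaphase, few chaperones differed from 2-cell controls: 4 probes were higher and none lower of 58 (6.90%, against 2.22% of all probes). Of all probes 1.56% were higher and 0.656% lower. The 4 were Hspb1, Dnajc12, Bag3 and Dnajb1. Hspb1 stood at 11.36 and 11.05 in prometaphase NT embryos, against 7.52 and 7.35 in 2-cell embryos, a difference of 3.77 ± 0.57 (adjusted p = 0.00273). Bag3 stood at 10.26 and 10.52 in prometaphase NT embryos, against 7.77 and 7.62 in 2-cell embryos (2.69 ± 0.35, adjusted p = 0.0009). Its NT level lay near that of fibroblasts, whereas Hspb1 in NT embryos was above all 3 fibroblast samples, at 8.56, 8.44 and 8.78.

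Dnajc12, known as a partner of aromatic amino acid hydroxylases, was at 7.68 and 8.42 in prometaphase NT embryos, against 5.15 and 5.44 in 2-cell embryos (2.76 ± 0.48, adjusted p = 0.00723). Dnajb1 was at 11.40 and 11.36 in prometaphase NT embryos, against 10.21 and 10.42 in 2-cell embryos (1.07 ± 0.23, adjusted p = 0.0278). No pair of groups overlapped for these 4 probes, which adds no support, since they were picked because they passed. All these arrays lay on slide 3. With only the 2 groups in the fit none of the 4 passed, with adjusted p between 0.058 and 0.201, and Dnajb1 also lost its call when any sample was left out. Without prometaphase NT sample 28, 2 probes passed and Dnajc12 had an adjusted p of 0.0586.

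The CCT ring did not pass in any of its 10 probes in prometaphase NT embryos against 2-cell controls, with differences between -0.63 and 1.01 and a median of -0.04. Tcp1 was at 10.53 and 10.81 in prometaphase NT embryos, against 10.74 and 10.37 in 2-cell embryos. Standard errors of the CCT differences ran from 0.30 to 0.96, which limits the differences that could be detected.

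**Figure D2:**
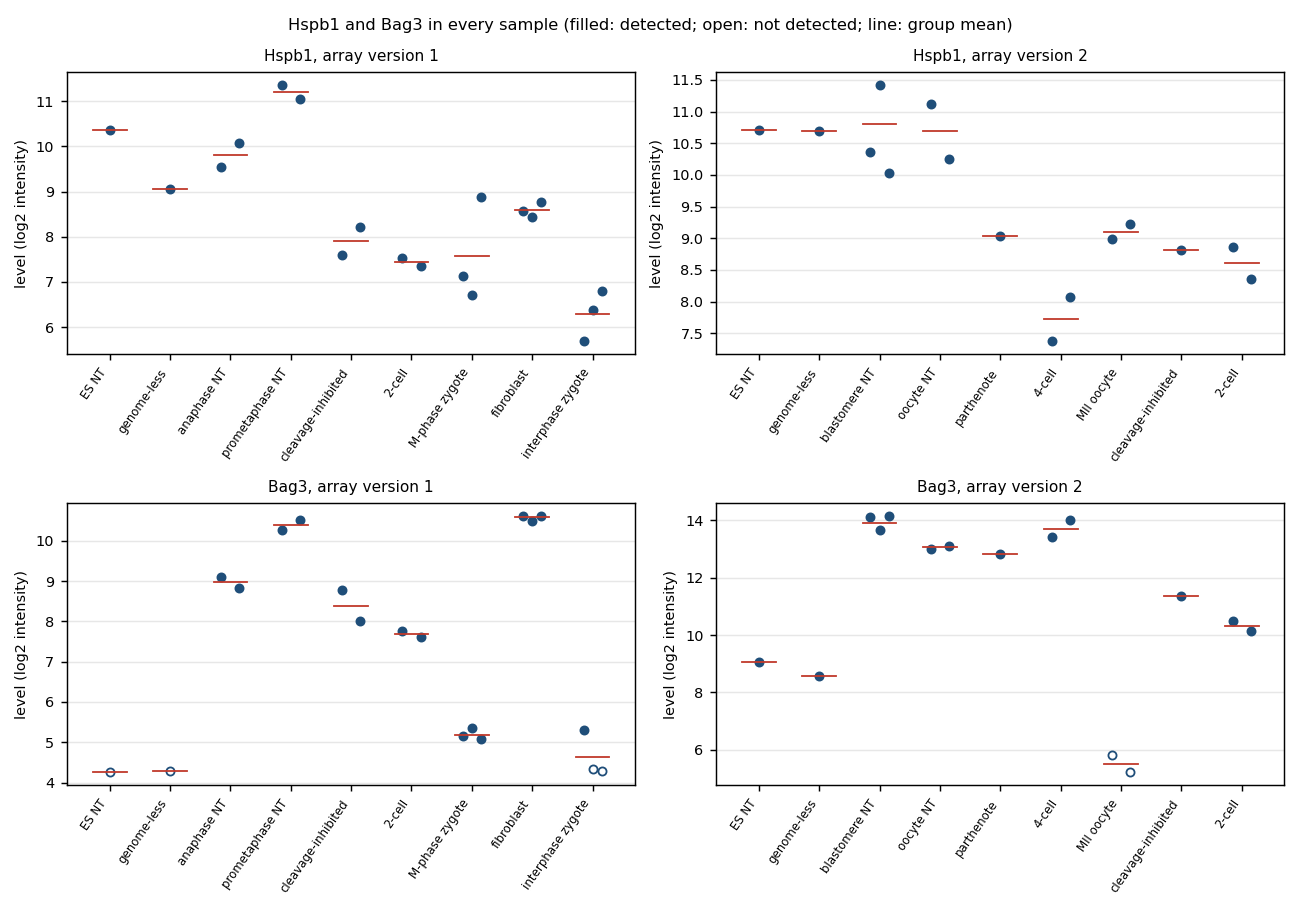
Levels of Hspb1 (top) and Bag3 (bottom) in every sample, in log2 intensity, on array version 1 (left) and version 2 (right); filled points were detected, open points were not, and lines are group means with blastomere NT arrays 1 and 3 averaged first. Hspb1 sits at 11.36 and 11.05 in prometaphase NT embryos and at 7.52 and 7.35 in 2-cell embryos, and Bag3 is undetected in genome-less and ES NT embryos of version 1 and in MII oocytes.

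NT embryos made at anaphase differed much more from 2-cell controls. CCT subunits, Stip1, Hspa9, Hspa4 and Bag1 were lower, and Hspa2, Dnajc18, Dnajc5b, Hspb1 and Bag4 higher. In all, 18 probes were lower and 8 higher of 58 (44.8%, against 32% of all probes), with a median of -0.30, against 0.04 over all probes. Lower calls took 16.9% of all probes and higher calls 15.1%. For 1 of the 18 lower probes, of Dnajc11, the 2-cell level lay under the lowest signal detected in anaphase NT embryos, so no size can be given.

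Of 10 CCT probes, 7 were lower and none higher, with a median of -1.89. Tcp1 stood at 4.27, undetected, and 8.62 in anaphase NT embryos, against 10.74 and 10.37 in 2-cell embryos, a difference of -4.11 ± 0.96 (adjusted p = 0.0045). The anaphase NT samples did not overlap the controls but lay far apart from each other. Cct4 was at 7.26 and 9.35 in anaphase NT embryos, against 10.55 and 10.68 in 2-cell embryos (-2.31 ± 0.53). Cct3 was at 6.09 and 5.68 in anaphase NT embryos, against 7.57 and 8.13 in 2-cell embryos (-1.96 ± 0.39), and Cct8 differed by -1.94 ± 0.51. Cct2, Cct5 and Cct6b did not pass, and Cct6b differed by 0.47 ± 0.46.

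Stip1 was at 6.63 and 8.05 in anaphase NT embryos, against 10.70 and 11.25 in 2-cell embryos, a difference of -3.63 ± 0.45 (adjusted p = 4.31e-05) with no overlap. Hspa9, the mitochondrial Hsp70, fell by 2.13 ± 0.59, Bag1 by 1.89 ± 0.46 and Hspa4 fell by 1.83 ± 0.66. Anaphase NT sample 15, with 30.7% of all probes detected against 38.5% in sample 19, carried part of these falls. The part of its lower detection was not tested. Without it the brighter Tcp1 probe differed by -1.94 (adjusted p = 0.0174) and Cct4 by -1.27 (0.0395). The dimmer Tcp1 probe, at -0.89 (0.181), Cct8, at -1.23 (0.113), Hspa9, at -0.91 (0.127), and Hspa4, at -0.84 (0.421), then did not pass, while Stip1, at -2.92, and Cct3, at -2.16, did. Hspa4 also did not pass without 2-cell sample 22 or 23, and Bag3 did not without anaphase NT sample 15 (adjusted p = 0.0542) or 2-cell sample 23 (0.0697).

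Among the rises was Hspa2, an Hsp70 best known from male germ cells, at 8.95 and 10.41 in anaphase NT embryos, against 4.52, undetected, and 6.88 in 2-cell embryos (3.98 ± 0.73, adjusted p = 0.000865). Dnajc18, at 8.57 and 7.57 in anaphase NT embryos, was not detected in 2-cell embryos and was at least 10.4-fold higher. Hspb1 stood at 9.54 and 10.08 in anaphase NT embryos, against 7.52 and 7.35 in 2-cell embryos (2.37 ± 0.57, adjusted p = 0.00538). Bag3 was higher by 1.27 ± 0.35 (adjusted p = 0.0127). Bag4 was at 11.32 and 11.36 in anaphase NT embryos, against 9.75 and 8.27 in 2-cell embryos (2.33 ± 0.37). Dnajc5b was higher by 2.77 ± 0.67. M-phase zygote levels were 9.14, 8.71 and 8.77 for Dnajc5b, and 11.95, 12.25 and 12.02 for Bag4, above both anaphase NT samples. The rises differed in this: Hspa2, at 6.97, 7.43 and 6.39 in M-phase zygotes, lay under both anaphase NT samples there. So did Dnajc18, at 5.34, 5.98 and 4.63. These levels were compared with M-phase zygotes without a test.

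Anaphase NT arrays lay on slide 2 and 2-cell arrays on slide 3. With slide as a block 5 chaperone probes passed, 3 lower and 2 higher, and with only the 2 groups in the fit 1 did. Stip1 (adjusted p = 0.0475), Cct3 (0.0445), Dnajc4 (0.0317) and Dnajc18 (0.0349) kept their calls with the block, while Tcp1 had an adjusted p of 0.208 and Hspb1 of 0.0548. A repeat hybridization of an anaphase NT sample lay on slide 3 and gave differences there of -2.89 for Stip1, -2.03 for Tcp1, -1.25 for Cct4, and 2.53 for Hspb1. It is not a further sample. Its levels of 8.08 for Stip1, 8.52 for Tcp1 and 9.36 for Cct4 lay near sample 19 (8.05, 8.62 and 9.35). Sample 15 had 6.63, 4.27 and 7.26, so these differences resemble those without sample 15. Cleavage-inhibited sample 20 lay on slide 2 with the anaphase NT arrays. Its Bag3 level, 8.77, lay near the 9.11 and 8.83 of anaphase NT embryos. Its Hspa2 was at 7.92, against 8.95 and 10.41, and its Hspb1 at 7.60, against 9.54 and 10.08. Its Stip1 was at 11.89 and its brighter Tcp1 probe at 11.20, above both anaphase NT samples. Anaphase NT embryos were not tested against this sample. Oocyte marker probes summed to linear levels of 23877 and 19763 in anaphase NT embryos, against 6980 and 6501 in 2-cell embryos, with 8 of 9 detected on each array. Markers of pluripotent and embryonic cells summed to 596 and 845 in anaphase NT embryos, with 4 and 3 of 6 detected, and to 9830 and 9301 in prometaphase NT embryos, against 9802 and 9260 in 2-cell embryos, with 6 and 5 detected. The 3 probes of genes known from activation at the 2-cell stage summed to 7165 and 9014 in anaphase NT embryos and 2578 and 2663 in prometaphase NT embryos, against 2748 and 2335 in 2-cell embryos. Fibroblast marker probes summed to 8927 and 11139 in anaphase NT embryos and 1124 and 1129 in prometaphase NT embryos, against 805 and 667 in 2-cell embryos and 52300 to 55353 in fibroblasts. Of 17 such probes, 10 and 12 were detected in anaphase NT, 6 and 8 in prometaphase NT and 4 and 4 in 2-cell embryos. The fibroblast list also summed to 3980, 4517 and 5049 in M-phase zygotes, with 4, 4 and 5 detected. In genome-less sample 49 it summed to 5206, with 4 detected, so its sum alone is not specific to donor RNA. The mean log2 level of the list was 6.80 and 7.31 in anaphase NT embryos and 4.76 and 4.63 in 2-cell embryos. It was 4.85, 4.83 and 5.16 in M-phase zygotes and 5.70 in sample 49. The part of these RNAs in the chaperone differences was not tested.

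Set directly against each other, anaphase NT embryos had 20 chaperone probes lower and 6 higher than prometaphase NT embryos (44.8%, against 36.1% of all probes), with a median of -0.50, against 0.04 over all probes. Of all probes 19.1% were lower and 17.0% higher. Tcp1 differed by -4.23 ± 0.96, and by -2.05 without anaphase NT sample 15. Stip1 fell by 3.72 ± 0.45 and Dnajb2 at least 6.80-fold. Bag3 was lower by a difference of -1.42 ± 0.35 (adjusted p = 0.0062) and Dnajb1 by -1.40 ± 0.23, while Hspb1 differed by -1.39 ± 0.57 (adjusted p = 0.0703) and did not pass. Both NT groups were also compared with the same 2-cell samples above. With slide as a block 6 probes passed, and with only the 2 groups in the fit 4.

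**Figure D3:**
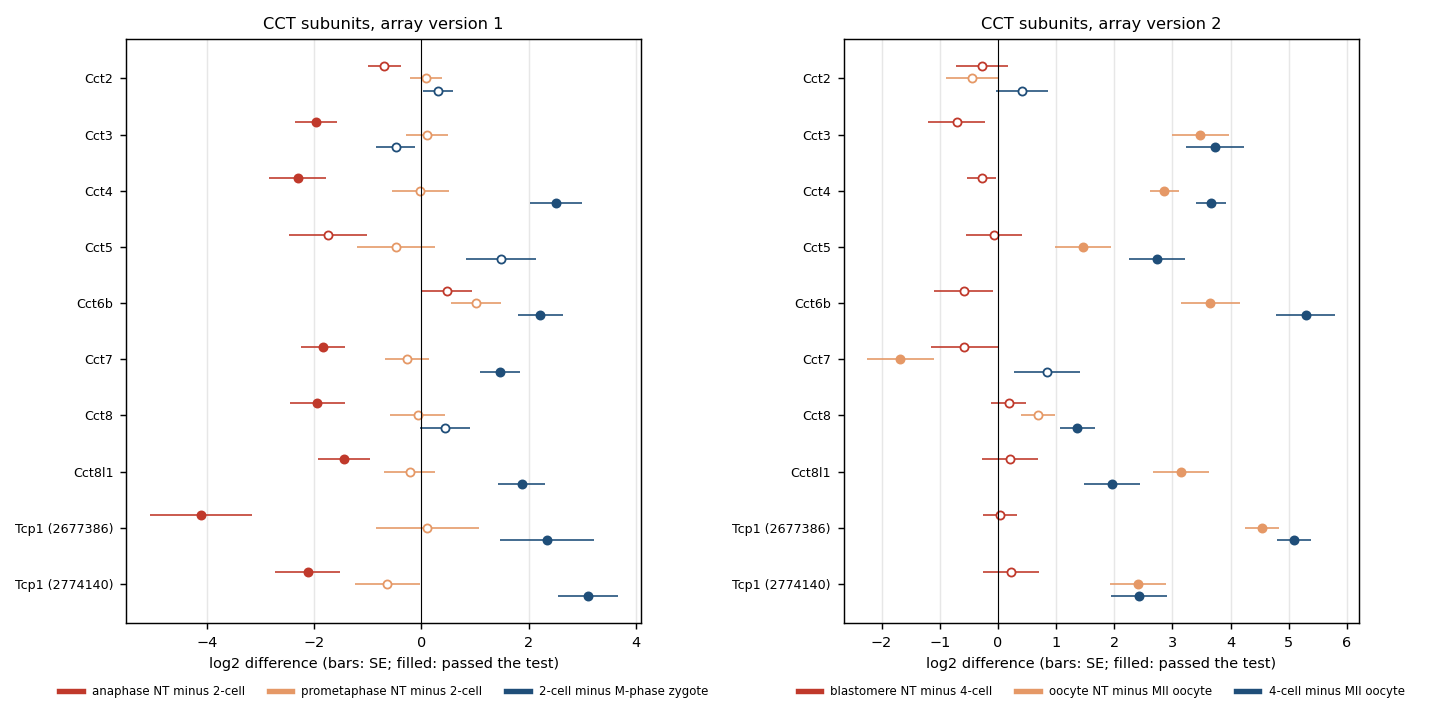
Log2 differences (bars, standard errors) of each CCT probe on array version 1 (left) and version 2 (right), with filled points for probes that passed and open points for those that did not. On version 1 anaphase NT embryos lie below 2-cell embryos for 7 of 10 probes that passed while prometaphase NT embryos lie around 0, and on version 2 oocyte NT and 4-cell embryos lie above MII oocytes for most probes.

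**Figure D4:**
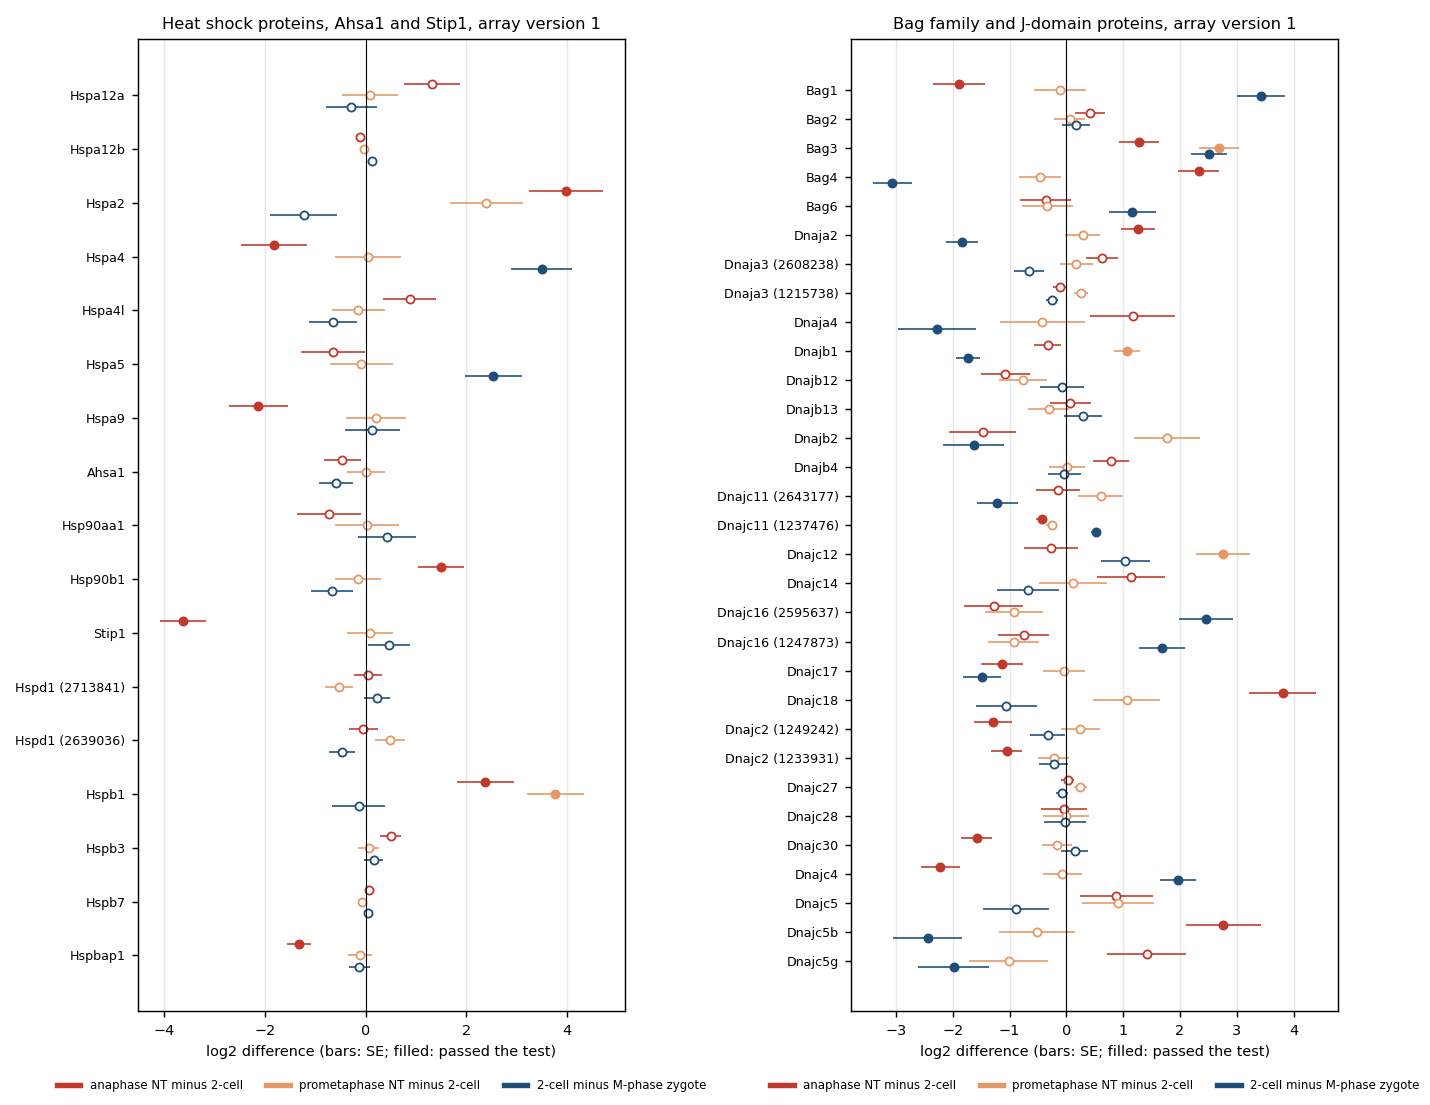
Log2 differences (bars, standard errors) on array version 1 of the heat shock protein, Ahsa1 and Stip1 probes (left) and of the Bag and J-domain probes (right), with filled points for probes that passed. Hspb1 and Bag3 lie above 2-cell embryos in both NT groups, and Stip1 lies at -3.63 in anaphase NT embryos but near 0 in prometaphase NT embryos.

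In NT embryos made in blastomeres 1 chaperone probe of 54 differed from 4-cell controls (1.85%, against 2.25% of all probes, 1.68% higher and 0.569% lower). It was Hspb1, which was higher. Its levels were 10.37, 11.42 and 10.02 in blastomere NT arrays 1, 2 and 3, against 7.37 and 8.07 in 4-cell embryos. Arrays 1 and 3 correlated at 0.995 and were averaged as 1 sample. The difference was 3.09 ± 0.52 (adjusted p = 0.014), with no overlap. The slide of 4-cell sample 2 was taken from its description, while its title gives another slide, so the next values rest on that choice. With slide as a block, and likewise within slide 7, the Hspb1 difference was 2.74 (adjusted p = 0.204 with the block). Without blastomere NT array 2 it was 2.47 (adjusted p = 0.145), without 4-cell sample 1 it was 2.74 (0.194) and without 4-cell sample 2 it was 3.44 (0.0867).

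Bag3 was at 14.09, 13.65 and 14.15 in blastomere NT arrays, against 13.42 and 13.99 in 4-cell embryos, and did not pass. The 10 CCT probes differed by -0.70 to 0.22 and none passed. Macrophage and leukocyte marker probes summed to 5270, 16101 and 4736 in blastomere NT arrays, with 5, 5 and 4 of 5 detected, against 307 and 243 in 4-cell embryos, with 1 and 0 detected. Fibroblast markers summed to 956, 3868 and 963 in blastomere NT arrays, with 5, 7 and 6 of 8 detected, against 843 and 755 in 4-cell embryos, with 2 and 4 detected. Pluripotent and embryonic markers summed to 56830, 38019 and 54350 in blastomere NT arrays, against 86848 and 83347 in 4-cell embryos. The fibroblast list also summed to 8227 and 8207 in MII oocytes, with 2 and 4 of 8 detected. Among the blastomere NT arrays, array 2 had the highest level of Hspb1 and the highest sums of the leukocyte and fibroblast lists. The part of these RNAs in the Hspb1 difference was not tested.

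NT embryos made in MII oocytes differed from those oocytes in 30 of 54 chaperone probes (55.6%, against 50.3% of all probes). Of these 21 were higher and 9 lower, where 25.1% of all probes were higher and 25.2% lower. The median was 0.69, against -0.07 over all probes. With scaling to the 75th percentile the split was 16 to 14, where the median of all probes shifted to -0.73, and on the deposited matrix values it was 17 to 12. The same MII oocytes, with the lowest shares of probes detected on this version, served as controls for 4-cell embryos above. Bag3 was at 13.00 and 13.10 in oocyte NT embryos, against 5.83 and 5.22 in MII oocytes, at least 92.5-fold higher. Bag1 differed by 5.69 ± 0.35, against 5.13 ± 0.35 for 4-cell embryos.

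Of 10 CCT probes, 7 were higher and 1 lower in oocyte NT embryos than in MII oocytes. Tcp1 was at 12.84 and 13.20 in oocyte NT embryos, against 8.47 and 8.48 in MII oocytes (4.54 ± 0.29, adjusted p = 7.98e-07). Cct7 fell by 1.68 ± 0.57 (adjusted p = 0.0297), a call lost without any of its samples but MII oocyte 2. Hspa8 (1.84 ± 0.24), Hspa4 (3.77 ± 0.50), Hspa5 (at least 1.61-fold), Stip1 (2.69 ± 0.37) and Hsp90aa1 (at least 2.12-fold) were higher.

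Hspb1 was at 11.12 and 10.26 in oocyte NT embryos, against 8.98 and 9.22 in MII oocytes (1.59 ± 0.52, adjusted p = 0.0255). Dnajc12 was at 8.57 and 9.71 in oocyte NT embryos and at least 6.17-fold higher than in MII oocytes, where it was not detected. Other members were lower than in MII oocytes: Dnajc5b fell by 3.40 ± 0.86, Hspa12a by 2.87 ± 0.45, Dnajc17 by 2.74 ± 0.40 and Dnaja2 by 2.54 ± 0.37.

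Embryos without a genome were lower than cleavage-inhibited embryos in 26 chaperone probes and higher in 6 of 58 (55.2%, against 49.4% of all probes), with a median of -1.19, against -0.02 over all probes. Only 15 of the 58 chaperone probes, 1 of them a CCT probe, were detected in genome-less sample 49. For 4 of the 26 lower probes, of Cct6b, Cct7, Dnajc11 and Dnajc16, the cleavage-inhibited level lay under the lowest signal detected in that sample, so a fall cannot be shown by detected signal. Of 10 CCT probes 8 passed as lower, and 6 of these were not so limited. Tcp1, on its brighter probe, was not detected in the genome-less sample, and Cct8 was at least 20.4-fold lower than in cleavage-inhibited embryos. Stip1 fell by 2.81 ± 0.55. Bag4, at 11.91 in the genome-less sample, against 9.16 and 9.20 in cleavage-inhibited embryos, was higher by 2.73 ± 0.45. Hspb1 was at 9.06 in the genome-less sample, against 7.60 and 8.21 in cleavage-inhibited embryos, and did not pass. With scaling to the 75th percentile 19 probes were lower and none higher, where the median of all probes shifted to 0.64. Against M-phase zygotes 16 probes were lower and 4 higher (34.5%, against 48.7% of all), 1 of them, of Dnajc2, under the same limit, and with scaling to the 75th percentile 20 and 12. Of all probes 23.4% were lower and 26.0% higher in genome-less than in cleavage-inhibited embryos. Against M-phase zygotes 23.6% of all probes were lower and 25.2% higher. With a single genome-less sample the spread is assumed to be that of the other groups.

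On the second version the genome-less sample had 36.1% of all probes and 70.4% of chaperone probes detected. Tcp1 was at 8.55 in it, against 13.54 in cleavage-inhibited and 13.32 and 12.79 in 2-cell embryos, and Cct4 at 8.71, against 13.59 in cleavage-inhibited and 12.97 and 13.09 in 2-cell embryos. Stip1 stood at 9.06 there, against 14.22 in cleavage-inhibited and 12.96 and 13.56 in 2-cell embryos. Hspb1 was at 10.69, against 8.82 in cleavage-inhibited and 8.86 and 8.36 in 2-cell embryos. Bag4 was at 13.93, against 11.38 in cleavage-inhibited and 11.97 and 10.30 in 2-cell embryos. These levels were compared without a test. The genome-less array lay on slide 7 and the cleavage-inhibited and 2-cell arrays on slide 8, so slide and group cannot be told apart. Those control arrays carried RNA of first-version samples hybridized again, so they are not further samples.

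NT embryos made with ES cell nuclei had 3 chaperone probes higher and 5 lower than genome-less embryos on the first version (13.8%, against 20.2% of all probes), and 3 and 3 on the second (11.1%, against 7.28%, with 3.84% higher and 3.44% lower). Tcp1 was at 8.25 in the ES NT sample, against 8.55 in the genome-less sample of the second version, and Cct4 at 7.13, against 8.71 (-1.59 ± 0.36, adjusted p = 0.025). Hspb1 was at 10.37 in the ES NT sample, against 9.06 in the genome-less sample of the first version, and at 10.72, against 10.69, on the second, and passed on neither. Dnajb1 (2.57 ± 0.33, adjusted p = 6.6e-05) was higher on the first version, and Stip1 (1.96 ± 0.52, adjusted p = 0.0467) on the second. Each group is 1 sample here, so neither comparison has a replicate of its own.

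Other genes of the pathway were counted from 4 lists. Of 17 probes of heat shock factors and co-chaperones outside the rule, 4 were higher and 3 lower in 2-cell embryos than in M-phase zygotes (median 0.13). In anaphase NT against 2-cell embryos 3 were higher and 4 lower (median 0.04). The single genes named below were picked from the list and do not stand for it. Over all probes 39.9% and 32% passed in these comparisons. Fkbp4, a co-chaperone of Hsp90, was higher by 2.46 in 2-cell embryos than in M-phase zygotes and fell by 4.11 in anaphase NT embryos against 2-cell embryos. Sugt1, another Hsp90 co-chaperone, differed by 3.89 and -2.85 in these comparisons. Unc45a, a myosin co-chaperone, was higher than in 2-cell embryos by 2.68 in anaphase NT and by 1.22 in prometaphase NT embryos on its brighter probe. In prometaphase NT embryos 1 of these 17 probes passed, against 2.22% of all probes. In oocyte NT embryos 5 of 17 were higher and 3 lower than in MII oocytes, where 50.3% of all probes passed.

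Prefoldin, which hands proteins to the CCT ring, and other CCT cofactors had 6 probes on the first version. Of these, 2 were lower in 2-cell embryos than in M-phase zygotes (median -0.90), against 20.6% of all probes, and none passed in anaphase NT against 2-cell embryos (median -0.64), against 32% of all. In 4-cell embryos 3 of 4 were higher than in MII oocytes, against 26.2% of all probes. Of 11 probes of chaperones and stress factors of the endoplasmic reticulum, 3 were lower and 1 higher in anaphase NT than in 2-cell embryos, Pdia4 among the lower ones, against 16.9% of all probes lower and 15.1% higher. In genome-less embryos 6 of 11 were lower and 1 higher than in cleavage-inhibited embryos, P4hb among the lower ones, against 23.4% of all probes lower and 26.0% higher. Of 5 probes of mitochondrial partners and proteases, 3 were lower in anaphase NT than in 2-cell embryos (median -1.83), against 16.9% of all probes, and none passed in prometaphase NT embryos.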

How the data were processed

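Illumina bead arrays of 2 versions were read with GenomeStudio, version not given, per the submitters' processing notes. The authors deposited an average bead intensity per probe and array with no normalization between arrays, per the file headers, and a detection p-value per probe and array. They also deposited a matrix of processed intensities, on a linear scale with values below 0, whose exact method is not given in the sources used here. From the deposited intensities, log2 levels were computed for each version with limma 3.58.1 in R 4.3.3 (neqc: normexp background correction from the detection p-values, offset 16, quantile normalization), keeping probes with a detection p under 0.05 on 2 or more arrays. Repeat hybridizations stayed out of the fits and blastomere NT arrays 1 and 3 were averaged, which left 19 samples on the first version (residual degrees of freedom 10) and 14 on the second (5). One fit per version over all groups gave 14 comparisons with Benjamini-Hochberg adjustment over all kept probes.

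Members and lists were chosen with earlier results of these data known. Named in each comparison were up to the 8 largest rises and 8 largest falls among member probes that passed, and a fixed set of Hsp70, Hsp90, CCT, Hspb1, Hspd1, Dnajb1, Bag3, Ahsa1 and Stip1 probes, some left out for length. Gene symbols are those of the array annotation, and cross-hybridization between related genes was not checked. Alternatives were no background correction, scaling to the 75th percentile, the deposited matrix, no detection filter, slide as a block, within-slide values, the brightest probe for a gene, only the groups compared, 3 blastomere NT samples, and leaving out each sample. The number of arrays limits the precision.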

Additional observations from a re-analysis of the deposited data

Results flagged for a closer look

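For 26 of 58 chaperone probes (44.8%, against 36.1% of all probes) the difference from 2-cell controls was not the same in anaphase NT as in prometaphase NT embryos. Both groups share the 2-cell samples, so the difference between them equals anaphase NT minus prometaphase NT embryos, which limma tested directly. It was -4.23 for Tcp1, -3.72 for Stip1, -3.25 for Dnajb2, -3.03 for Dnajc12, -2.34 for Hspa9, -2.29 for Cct4, -2.15 for Dnajc4 and -2.07 for Cct3. It was -1.88 for Cct8, -1.87 for Hspa4, -1.77 for Bag1, -1.57 for Cct7, -1.54 and -0.83 for the probes of Dnajc2, -1.42 for Bag3, -1.41 for Dnajc30 and -1.40 for Dnajb1. It was -1.21 for Hspbap1, -1.09 for Dnajc17 and -0.37 for a Dnaja3 probe that no array of either group detected. Dnajb2, Cct7 and the Dnajc2 probe at -0.83 were not detected on any anaphase NT array, so their values are fitted differences and not measured sizes. Values above 0 were 0.97 for Dnaja2, 1.66 for Hsp90b1, 2.43 for Dnajc5g, 2.75 for Dnajc18, 2.79 for Bag4 and 3.28 for Dnajc5b.

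The anaphase NT samples correlated at 0.819, and without sample 15 of them 19 of the 26 probes passed and none reversed. Tcp1 was then at -2.05, Hspa9 at -1.12, Cct4 at -1.25, Cct8 at -1.17 and Hspa4 at -0.88, each smaller by over 1.5 times, while Stip1 was at -3.01 and Dnajb2 at -3.19. Without anaphase NT sample 19, 23 passed and Dnajc17 was at -0.48. Without prometaphase NT sample 27, 18 passed, and without sample 28, 21 passed and Dnajc18 was at 1.72. Anaphase NT arrays lay on slide 2 and prometaphase NT arrays on slide 3, and the part of the slide was not tested beyond the values with slide as a block.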

How the results depend on the processing

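The values counted here are of the largest rises and falls among member probes that passed in each comparison. Of 1502 such values under the alternatives, 1312 kept their direction and side of the threshold, 187 lost the threshold and 3 reversed. Probes of the fixed set that had not passed were not counted, so a gain of the threshold could not be seen. The reversals came with scaling to the 75th percentile: Dnajc30 at -0.94 and Bag1 at -0.15 in genome-less embryos against M-phase zygotes, and Dnajc30 at -0.80 against cleavage-inhibited embryos. The cause was not tested.

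Counts of chaperone probes that passed moved as follows. M-phase against interphase zygotes gave 4, and 2 with 75th percentile scaling, 2 with slide as a block, 0 with only the groups compared and 3 to 9 with a sample left out. Cleavage-inhibited against 2-cell embryos gave 1, and 0 with each of these 3 settings and 0 to 1 with a sample left out. Anaphase NT against 2-cell embryos gave 26, and 5 with slide as a block, 1 with only the groups compared and 19 to 29 with a sample left out. Prometaphase NT against 2-cell embryos gave 4, and 0 with only the groups compared and 2 to 4 with a sample left out. Anaphase against prometaphase NT embryos gave 26, and 6 with slide as a block, 4 with only the groups compared and 18 to 30 with a sample left out. Genome-less embryos against M-phase zygotes gave 20, and 32 with 75th percentile scaling and 13 with slide as a block. Genome-less against cleavage-inhibited embryos gave 32, and 19 with 75th percentile scaling. ES NT against genome-less embryos gave 8, and 2 with 75th percentile scaling and 16 with no detection filter. On the second version it gave 6, and 3 without background correction, 2 with 75th percentile scaling and 2 with slide as a block. Blastomere NT against 4-cell embryos gave 1, and 0 with slide as a block, 0 to 2 with a sample left out, and 2 without background correction, with 75th percentile scaling, with the brightest probes, with 3 blastomere NT samples or with only the groups compared.

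With 75th percentile scaling the median of all probes shifted to -0.67 in fibroblasts, 0.30 in 2-cell embryos against M-phase zygotes, 0.20 and -0.25 in anaphase and prometaphase NT embryos against 2-cell embryos, and 0.72 in genome-less embryos against M-phase zygotes. No paired analysis was possible because the labels' sample numbers are not shared between groups. Groups of 1 to 3 samples, 2 array versions fitted apart and slides partly confounded with groups limit all comparisons.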

Other observations

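The parthenote, measured in 1 sample 2 d after activation, was in no comparison. Tcp1 was at 12.88 in it, against 8.47 and 8.48 in MII oocytes, Bag3 at 12.81, against 5.83 and 5.22, and Bag1 at 13.53, against 8.62 and 7.79. Hspb1 was at 9.04, against 8.98 and 9.22 in MII oocytes, while oocyte NT embryos had 11.12 and 10.26. Dnajc5b, at 6.56, was below the MII oocyte levels of 10.47 and 10.83. No test was made on these values.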
